A study of Mus musculus with 3 samples.

Results

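Granule-intermediate blood neutrophils were the neutrophils of mouse blood with a middling amount of transcript for 3 granule proteins. A cell counted as a member when S100a8 and S100a9 together gave at least 5% of its UMIs (unique molecular identifiers, each standing for 1 captured transcript) and Camp, Ltf and Ngp together gave at least 1% but under 5%. Of 29754 cells that had 500 or more UMIs, 200 or more genes and no more than 10% mitochondrial UMIs, 7593 met the rule. There were 4617 members in the HDCA+CLP library, 2968 in the CLP library and 8 in the Sham library. The members were thus chosen by the measured levels of these 5 genes, which are described here and not tested.

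Blood of C57BL/6J mice was profiled by droplet single-cell RNA sequencing with 3′ counting, in 1 library a group, each labelled as taken at 12 h. The first group was given HDCA and CLP, the second CMC and CLP, called CLP here, and the third was labelled Sham, with no CMC named. The labels leave the abbreviations unexpanded, and they are read here as hyodeoxycholic acid (a bile acid), caecal ligation and puncture (surgery that lets gut contents leak into the abdomen and is used to model sepsis) and carboxymethylcellulose (a common vehicle). CMC and CLP cannot be told apart in the CLP library when it is set against Sham. The labels give no dose, no order of treatment and surgery, and no number, age or sex of animals. The labelled cell type is mononuclear cells, a fraction that neutrophils do not belong to, yet cells past the S100 threshold made up 9386 of 12023 HDCA+CLP cells, 5313 of 10840 CLP cells and 256 of 6891 Sham cells. With 1 library a group no test between groups was possible, so no p-value is given, and every interval is a 95% interval that covers counting error and no difference between animals.

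Neutrophils make their granule proteins in a fixed order while they mature in the bone marrow. Azurophil granule proteins such as myeloperoxidase come first, specific granule proteins such as lactoferrin (Ltf), cathelicidin (Camp) and neutrophilic granule protein (Ngp) come next, and gelatinase granule proteins and surface receptors come last. Transcripts of the specific granule proteins peak in the marrow and decline as the cell matures. Systemic infection is known to release less mature neutrophils into the blood. S100a8 and S100a9 encode the calprotectin subunits, which are abundant in neutrophils.

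Promoters of 4 granule genes are shown because the first 3 define the members and the fourth, Mmp8, marks them. They are the 150 bases upstream of the annotated start, 5′ to 3′ on the gene's strand, from RefSeq on GRCm38.p6: Ngp at chr9:110419658-110419807 (plus strand), Ltf at chr9:111019142-111019291 (plus), Camp at chr9:109849457-109849606 (minus) and Mmp8 at chr9:7558279-7558428 (plus). Capitals mark every match, on either strand, to the motif TTNNGCAA, a C/EBP-like sequence. C/EBP epsilon is the factor known for driving specific granule genes.
Ngp: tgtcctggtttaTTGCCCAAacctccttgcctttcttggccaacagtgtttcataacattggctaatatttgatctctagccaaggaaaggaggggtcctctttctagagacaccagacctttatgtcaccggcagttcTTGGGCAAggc
Ltf: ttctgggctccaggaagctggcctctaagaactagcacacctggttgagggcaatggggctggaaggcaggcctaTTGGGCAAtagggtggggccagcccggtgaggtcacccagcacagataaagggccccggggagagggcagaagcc
Camp: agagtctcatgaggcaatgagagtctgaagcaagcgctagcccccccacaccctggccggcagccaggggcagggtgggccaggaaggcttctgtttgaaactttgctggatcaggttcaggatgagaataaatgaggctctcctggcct
Mmp8: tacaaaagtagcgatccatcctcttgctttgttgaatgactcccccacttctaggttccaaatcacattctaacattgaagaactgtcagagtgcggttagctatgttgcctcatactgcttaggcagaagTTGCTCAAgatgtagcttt
Ngp held 2 matches, starting 138 and 11 bases before the start, Ltf held 1 at 75 bases and Mmp8 held 1 at 19 bases. Camp had none in this window. Within 250 bases upstream, 9.56% of 32851 promoters and 10.8% of 27025 genes held the motif. Of the fixed list of other specific granule genes, 5 of 15 with an entry held it, and of the gelatinase granule list 4 of 10 did. The gelatinase list is broad and holds enzyme genes such as Hk3, Dgat1 and Padi4 beside Mmp8 and Mmp9. A match is a description of the letters and says nothing of binding. The submitters' processing notes name another genome build, so no other coordinates are given.

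The members were neutrophils by the markers that the rule had not used. Retnlg, a resistin-like protein secreted by neutrophils, had 16197 CPM (counts per 1000000 UMIs, summed over the members of a library) in HDCA+CLP members, 16276 CPM in CLP members and 41305 CPM in Sham members. In the reference cells gated by T, B, NK or monocyte markers, Retnlg reached at most 279 CPM in the HDCA+CLP library and 143 CPM in the CLP library. Mmp8, the neutrophil collagenase, had 2298, 2594 and 4011 CPM in the HDCA+CLP, CLP and Sham members. Cxcr2, the receptor for neutrophil-attracting chemokines, had 707, 670 and 713 CPM in the same order of libraries, and Csf3r, the G-CSF receptor, had 193, 165 and 331 CPM. Ly6g, the surface antigen that defines mouse neutrophils, had 277, 177 and 395 CPM. With Mmp9, the gelatinase of gelatinase granules, all 6 markers of the neutrophil list that the rule had not used were present in each library.

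Markers of other cell types were low but not absent. The 5 T cell markers summed to 45.8 CPM in HDCA+CLP members, 62.8 CPM in CLP members and 293 CPM in Sham members, and the 5 NK cell markers to 208, 348 and 89.1 CPM. Most of the NK sum in the 2 CLP libraries was Gzma, a granzyme that NK cells make in bulk, with 168 CPM in HDCA+CLP members and 280 CPM in CLP members. Monocyte markers summed to 1013, 684 and 700 CPM in HDCA+CLP, CLP and Sham members, but nearly all of it was Ly6c2, with 959, 612 and 688 CPM, a surface antigen that young neutrophils also carry. Erythroid markers summed to 124 and 93.6 CPM in HDCA+CLP and CLP members and were at 0 in Sham members. Of the eosinophil markers, Prg2 and Epx were at 0 in every library and Siglecf was at 1.46, 0.863 and 0 CPM in HDCA+CLP, CLP and Sham members, and dendritic cell and basophil markers stayed under 1 CPM in sum. Early myeloid markers summed to 17.0, 9.26 and 0 CPM, mostly the azurophil protease gene Prtn3, so azurophil protease transcripts were close to 0. At least 3 UMIs of another class's markers were found in 5.35% of HDCA+CLP members, 7.68% of CLP members and 1 of 8 Sham members. The classes counted there were T, B, NK, platelet and erythroid, and monocyte markers were not among them. A doublet caller marked 16.6% of HDCA+CLP members, 18.1% of CLP members and the same 1 Sham cell, and the members were kept in the main values with results also computed without these cells. The neighbouring ranges had fewer, with 9.48% of granule-high cells in HDCA+CLP and 11.3% in CLP, and 5.65 and 12.0% of granule-low cells.

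The share of granule-intermediate neutrophils differed mostly between the 2 CLP libraries and Sham. They were 38.4% of all HDCA+CLP cells (exact interval 37.5 to 39.3%), 27.4% of all CLP cells (26.5 to 28.2%) and 0.116% of all Sham cells (0.0501 to 0.229%). A library's share of all cells also moves with how many lymphocytes and monocytes it holds. Among cells past the S100 threshold the order of the 2 CLP libraries was the other way round: 49.2% of HDCA+CLP neutrophils (48.2 to 50.2%), 55.9% of CLP neutrophils (54.5 to 57.2%) and 3.12% of Sham neutrophils (1.36 to 6.06%). Granule-low neutrophils, under the 1% limit, numbered 1645 in HDCA+CLP, 551 in CLP and 236 in Sham, and granule-high neutrophils, at 5% or more, numbered 3124, 1794 and 12. Nearly all Sham neutrophils were therefore granule-low, while in both CLP libraries the intermediate range held more cells than either neighbour.

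**Figure D1:**
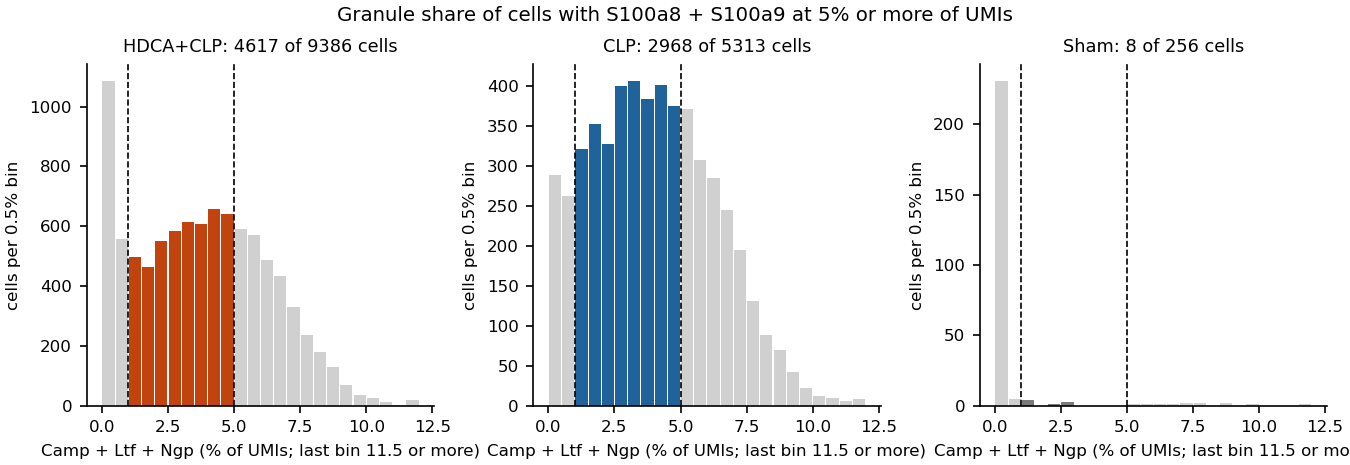
Histograms of the granule share (Camp, Ltf and Ngp as a percentage of a cell's UMIs, in bins of 0.5%) against the number of cells, for cells past the S100 threshold, in 1 panel a library (HDCA+CLP, CLP, Sham), with the range of 1% to 5% marked. The HDCA+CLP and CLP cells run through the range without a gap at either limit, with 4617 and 2968 cells inside it, and Sham has 8 there.

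The range is a stretch of a continuous scale and not a separate type. In HDCA+CLP, 115 cells had a granule share of 0.9 to 1.0% and 95 of 1.0 to 1.1%, and 120 had 4.9 to 5.0% and 114 had 5.0 to 5.1%. In CLP the counts were 53 and 68 at the lower limit and 71 and 79 at the upper limit. Neither library had a gap at either limit, but bins of 0.5% had a low near the lower limit. HDCA+CLP had 558, 498, 463 and 552 cells in the bins from 0.5 to 2.5%. CLP had 289, 262 and 321 in the bins from 0 to 1.5%. The S100 threshold cut no continuum, since only 2 HDCA+CLP and 2 CLP cells with an intermediate granule share lay just below it, at 4 to 5%. Across the bins of 1 to 2, 2 to 3, 3 to 4 and 4 to 5%, HDCA+CLP had 961, 1135, 1222 and 1299 members and CLP had 673, 727, 791 and 777, while the 8 Sham members fell 4 and 4 into the first 2 bins. The median granule share was 3.16% in HDCA+CLP, 3.11% in CLP and 1.74% in Sham members. Cells under the S100 threshold had a median granule share of 0.0359% in HDCA+CLP, 0.0211% in CLP and 0% in Sham, far under the 1% limit. Members had medians of 7853 UMIs in HDCA+CLP, 8148 in CLP and 10097 in Sham, and S100a8 and S100a9 took 35.8, 36.5 and 39.8% of them. Of the barcodes, 34 occurred in both the HDCA+CLP and the CLP library, 2 of them as members in both, and Sham shared 17 with HDCA+CLP and 26 with CLP, none as members.

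Along the granule share, Retnlg, Mmp8, Mmp9 and Cxcr2 peaked inside the intermediate range in the HDCA+CLP and CLP libraries. Retnlg had 17681 CPM in granule-low HDCA+CLP cells, 22474 CPM in the 1 to 2% bin, 12038 CPM in the 4 to 5% bin and 7449 CPM in granule-high cells. In CLP the same steps were 15967, 21435, 11853 and 7432 CPM. Mmp8 was likewise highest inside the range, at 2529 CPM in the 1 to 2% bin of HDCA+CLP and 2979 CPM in the 2 to 3% bin of CLP, with 1762 and 1896 CPM in the granule-low cells of those libraries and 1356 and 1250 CPM in the granule-high cells. Mmp9 peaked in the 2 to 3% bin, at 1412 CPM in HDCA+CLP and 1656 CPM in CLP. Cxcr2 peaked in the 1 to 2% bin, at 847 CPM in HDCA+CLP and 786 CPM in CLP. In Sham, Cxcr2 was instead highest in granule-low cells, at 1683 CPM, with 675 and 747 CPM in the 2 bins that held Sham members.

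Other genes climbed or declined through the whole range. Anxa1, which encodes the anti-inflammatory protein annexin A1, stepped up over the 4 bins from low to high granule share with 2298, 2837, 3395 and 3756 CPM in HDCA+CLP members, and with 2049, 2700, 3148 and 3739 CPM in CLP members. Chil3, a chitinase-like secreted protein, had 3434 CPM in the lowest and 7394 CPM in the highest of these bins in HDCA+CLP, and 4120 and 9216 CPM in CLP. Fcnb, encoding ficolin B of early granules, was at 3.42 and 2.51 CPM in the lowest bin of HDCA+CLP and CLP and at 28.4 and 23.2 CPM in the highest. Csf3r ran the other way, with 280, 225, 169 and 142 CPM over the bins in HDCA+CLP and 237, 191, 148 and 117 CPM in CLP. Il1b, the inflammatory cytokine interleukin-1 beta, had 525, 251, 110 and 78.0 CPM over the bins in HDCA+CLP and 284, 167, 59.6 and 38.9 CPM in CLP. Members near the 1% limit and members near the 5% limit thus differed in these genes in both libraries, in the same direction. These are levels of cells ordered by a share of the same UMIs, so they are a description.

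**Figure D2:**
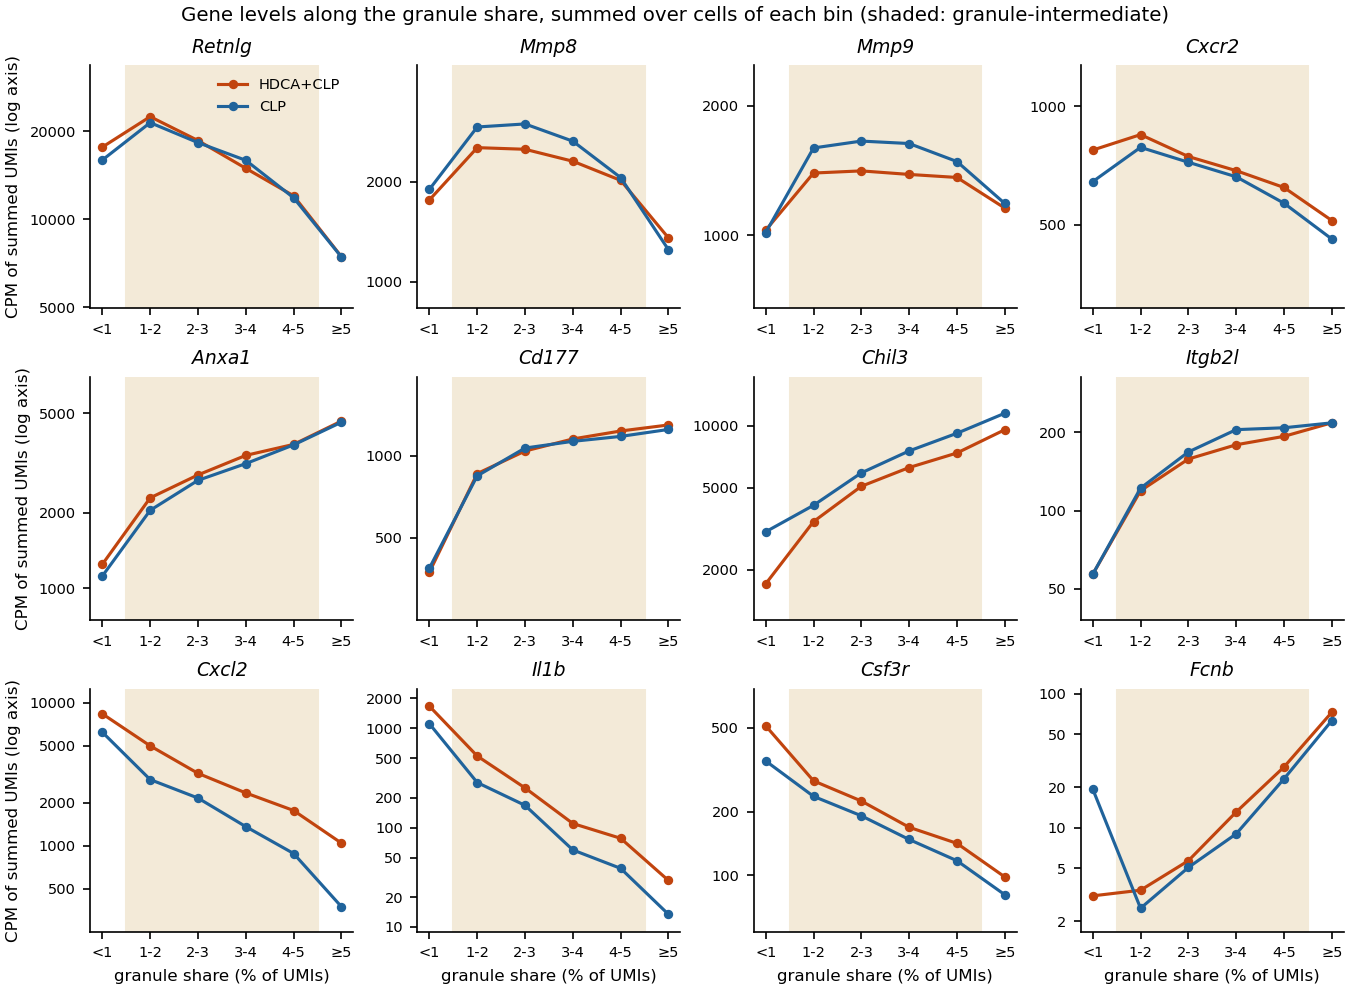
CPM of summed UMIs (log axis) of selected genes against the granule share in 6 steps from under 1% to 5% or more, with 1 line for the HDCA+CLP and 1 for the CLP library and the granule-intermediate bins shaded. Retnlg, Mmp8, Mmp9 and Cxcr2 are highest inside the shaded range, Anxa1 and Chil3 climb through it, and Cxcl2, Il1b and Csf3r decline through it.

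Against granule-low neutrophils of the same library, the members had less cytokine and immediate early transcript and more of single genes such as Serpinb1a and Cd177. Of 8642 genes measured, meaning at least 50 UMIs over both sums, 89 (1.03%) were at least 2-fold higher and 598 (6.92%) at least 2-fold lower in both CLP libraries. The cells were chosen along this axis, so the counts describe the axis. The split moved with the scale: with the 5 genes of the rule taken out of the total the counts were 220 higher and 362 lower, and with size factors 156 and 430. The median of all genes was -0.15 in HDCA+CLP and -0.26 in CLP on the log2 scale, and 0.15 and 0.07 without the rule's genes. Without called doublets the counts were 115 higher and 454 lower. Cells thinned to 2000 UMIs gave 94 and 226.

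The gene furthest above granule-low cells by the naming rule was Serpinb1a, which encodes an inhibitor of neutrophil serine proteases. It had 626 CPM in granule-intermediate and 124 CPM in granule-low cells of HDCA+CLP, a log2 ratio of 2.34 (2.25 to 2.42), and 598 and 152 CPM in CLP, a log2 ratio of 1.98 (1.85 to 2.10). The 8 Sham members had 446 CPM, against 54.8 CPM in Sham granule-low cells. Cd177, a neutrophil surface protein used in migration, had 1100 against 374 CPM in HDCA+CLP, 1075 against 387 CPM in CLP and 1311 against 154 CPM in Sham. Itgb2l, an integrin beta-2-like chain, had 168 against 56.9 CPM in HDCA+CLP and 182 against 56.9 CPM in CLP. Each of these was higher in the intermediate cells of all 3 libraries. The others named were Adpgk (an ADP-dependent glucokinase), Syne1 (a nuclear envelope protein), Aldh2 (a mitochondrial aldehyde dehydrogenase), Anxa1 and Map1lc3a (an autophagy protein), with log2 ratios of 1.35 to 2.44 in the 2 CLP libraries.

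Il1b led the genes below granule-low cells, with 205 CPM in granule-intermediate and 1666 CPM in granule-low cells of HDCA+CLP, a log2 ratio of -3.02 (-3.06 to -2.99), and 121 and 1109 CPM in CLP, a log2 ratio of -3.20 (-3.27 to -3.13). In Sham it was at 0 in the 8 members and at 2988 CPM in granule-low cells. Cxcl3, a chemokine that draws neutrophils, had 38.4 against 289 CPM in HDCA+CLP and 22.8 against 187 CPM in CLP. Nr4a1, an immediate early nuclear receptor, had 39.0 against 245 CPM in HDCA+CLP and 33.5 against 210 CPM in CLP. The remaining named genes were Ly6i, F10 (coagulation factor X), Ppp1r15a and Gadd45b (2 stress-response genes) and Pou2f2 (the transcription factor Oct-2), with log2 ratios of -3.29 to -2.36. Nr4a1 and Ppp1r15a are also known to respond to cell handling, and whether handling had a part was not tested.

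Gene lists showed the same for cytokine and immediate early genes as groups. The median of all genes was itself -0.15 in HDCA+CLP and -0.26 in CLP, so counts of lower genes stand against a scale shifted the same way. Of the inflammatory cytokine and chemokine list, 22 of 23 measured genes were lower than in granule-low cells in HDCA+CLP (median -1.47) and 19 of 22 in CLP (median -1.78). All 21 measured immediate early genes were lower in HDCA+CLP (median -1.06) and all 20 in CLP (median -0.92). All 17 measured interferon-gamma response genes were lower, with medians of -1.06 and -1.26, although without the rule's genes in the total 2 of the 17 were higher in HDCA+CLP. Of the type I interferon list 32 of 34 were lower in HDCA+CLP and 33 of 34 in CLP, with medians of -0.55 and -0.60, and without the rule's genes in the total 25 of 34 and 27 of 34 were. Specific granule genes outside the rule ran the other way, with 10 of 16 higher in HDCA+CLP (median 0.34) and 9 of 16 in CLP (median 0.26). So did the broad gelatinase granule list, with 7 of 11 and 9 of 11 higher (medians 0.37 and 0.45). Antiproteases as a group were lower despite Serpinb1a, for 13 of 17 in HDCA+CLP and 13 of 16 in CLP (medians -0.71 and -1.05). The nuclear oxidative phosphorylation list changed sign with the scale in CLP, at -0.14 in the main value and 0.19 without the rule's genes, so no direction is given for it. Monocyte markers moved with these lists: 5 of 6 were lower in the intermediate cells of HDCA+CLP and 6 of 6 in CLP (medians -2.57 and -2.89). Without cells carrying T, B, NK, platelet or erythroid markers the medians were -2.59 and -3.92. That filter did not use monocyte markers, so it could not remove cells for carrying them. The part of monocyte transcripts in the lower cytokine and interferon values was not tested.

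Against granule-high neutrophils the members showed the opposite for the same groups. Of 8957 genes measured, 446 (4.98%) were at least 2-fold higher and 29 (0.324%) at least 2-fold lower in both CLP libraries, and with the rule's genes out of the total 373 and 48 were. Without called doublets 157 genes were higher and 43 lower, and without cells bearing another class's markers 186 and 34. T cell markers were higher in the intermediate cells (5 of 5, medians 2.21 in HDCA+CLP and 2.18 in CLP), as were NK cell markers (5 of 5, medians 2.64 and 3.02) and erythroid markers (3 of 3, medians 5.56 and 5.75). The 2 kinds of cell also differed in depth, with medians of 7853 and 10131.5 UMIs in granule-intermediate and granule-high HDCA+CLP cells and 8148 and 10806 in those of CLP, and thinned to 2000 UMIs 144 genes were higher and 20 lower.

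Il1b again led, with 205 CPM in granule-intermediate and 29.4 CPM in granule-high cells of HDCA+CLP, a log2 ratio of 2.80 (2.70 to 2.90), and 121 and 13.4 CPM in CLP, a log2 ratio of 3.17 (2.99 to 3.36). Il1rn, encoding the interleukin-1 receptor antagonist, had 135 against 33.3 CPM in HDCA+CLP and 113 against 23.2 CPM in CLP. Cxcl2, a main neutrophil-attracting chemokine, had 2821 against 1042 CPM in HDCA+CLP and 1688 against 374 CPM in CLP. Cxcl2 had 8373 and 6225 CPM in the granule-low cells of HDCA+CLP and CLP, so that the members lay between the 2 neighbouring ranges in both Cxcl2 and Il1b. Also named were Ifi204 and Ifit3 (interferon-induced genes), Marcks, Acod1 (the itaconate enzyme) and Pla2g7 (an enzyme that breaks down platelet-activating factor), with log2 ratios of 1.42 to 2.24.

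Fcnb stood lowest against granule-high cells, with 14.5 against 72.8 CPM in HDCA+CLP, a log2 ratio of -2.33 (-2.46 to -2.20), and 11.2 against 63.1 CPM in CLP, a log2 ratio of -2.50 (-2.69 to -2.31). Cybb, the catalytic subunit of the phagocyte NADPH oxidase, had 409 against 863 CPM in HDCA+CLP and 418 against 911 CPM in CLP. Serpinb1a had 626 against 1086 CPM in HDCA+CLP and 598 against 1008 CPM in CLP, so its level in the members lay between those of the 2 neighbouring ranges. Lta4h (an enzyme of leukotriene B4 synthesis), Lmo1, Cd81, Inhba and Clec12a (an inhibitory lectin receptor) were the other named genes, with log2 ratios of -1.23 to -0.86. The median of all genes against granule-high cells was 0.17 in HDCA+CLP and 0.23 in CLP, and 0.0019 and 0.035 without the rule's genes in the total. Of the lists, 13 of 16 specific granule genes outside the rule were lower in each library (medians -0.23 in HDCA+CLP and -0.25 in CLP). Higher were 21 of 22 inflammatory genes in HDCA+CLP and 20 of 21 in CLP (medians 1.23 and 1.47), all 17 interferon-gamma response genes in both (1.17 and 1.42), and 20 of 21 receptors of mature neutrophils in both (0.47 and 0.54). Without the rule's genes in the total the receptors were higher for 18 of 21 in both (0.31 and 0.35). Without called doublets the inflammatory medians were 1.31 and 1.34. The cell cycle list changed sign when called doublets were left out, with medians of 0.11 in HDCA+CLP and 0.38 in CLP in the main values and -0.43 and -0.41 without them.

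HDCA+CLP and CLP members differed in interferon-induced and cytokine genes, in most by less than 2-fold. Genes of the interferon-gamma response list were mostly lower and those of the type I interferon list mostly higher in HDCA+CLP members. These are gene lists, and which interferon acted on the cells was not tested. Of 9599 genes measured, 207 (2.16%) were at least 1.5-fold higher and 671 (6.99%) at least 1.5-fold lower in HDCA+CLP. Above 0 on the log2 scale were 35.1% of the genes, with a median of -0.09, and scaled by size factors the counts were 297 higher and 468 lower. Without called doublets they were 265 and 366, and without cells bearing another class's markers 277 and 356. Among granule-low cells 4.16% of 7423 genes were higher and 21.0% lower, and among granule-high cells 3.52% of 8773 were higher and 3.90% lower. Both libraries had CLP and differ in agent, animal and preparation at once, which cannot be told apart.

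Ifi27l2a, an interferon-induced gene of unsettled function, had 1481 CPM in HDCA+CLP members and 705 CPM in CLP members, a log2 ratio of 1.07 (1.05 to 1.10), and 63.7 CPM in the 8 Sham members. Its log2 ratio was 0.86 to 1.35 over the 4 bins of granule share, 0.88 in granule-low cells and 1.34 in granule-high cells, so it was higher in HDCA+CLP along the whole scale. Slc7a11, the cystine transporter that feeds glutathione synthesis, had 215 CPM in HDCA+CLP members and 104 CPM in CLP members, a log2 ratio of 1.05 (0.98 to 1.11). That difference was wider in granule-high cells, at 118 against 29.8 CPM (1.99), and narrow in granule-low cells, at 518 against 442 CPM (0.23). G0s2, an inhibitor of triglyceride breakdown, had 321 CPM in HDCA+CLP members and 161 CPM in CLP members (log2 ratio 0.99, 0.94 to 1.04).

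Il1f9, now called interleukin-36 gamma, had 74.6 CPM in HDCA+CLP members and 35.8 CPM in CLP members, a log2 ratio of 1.06 (0.95 to 1.17), but 178 CPM in Sham members, from cells too few to rank. The stefins BC100530 and Stfa2, inhibitors of cysteine proteases, had 69.5 against 25.9 CPM and 67.0 against 32.3 CPM in HDCA+CLP and CLP members. These are near-identical copies, and how the counting split reads between them is uncertain. Of the list of stefins, serpins and other antiproteases, 12 of 17 measured genes were higher (median 0.15), with 4 past 1.5-fold higher and 2 past it lower. Asprv1 (a retroviral-like protease) had 387 against 202 CPM, Fos (an immediate early gene) 301 against 166 CPM and Id1 (an inhibitor of DNA binding) 88.4 against 47.9 CPM in HDCA+CLP and CLP members. Ccl6, a chemokine of myeloid cells, completed the 10 named genes with a log2 ratio of 0.82. Of the immediate early list, which also follows cell handling, 12 of 20 genes were higher (median 0.26), and its part in the Fos value was not tested.

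The 10 named genes that were lower in HDCA+CLP members were led by Thbs1, which encodes the matrix protein thrombospondin 1, with 228 CPM in HDCA+CLP members and 400 CPM in CLP members, a log2 ratio of -0.81 (-0.85 to -0.77). Thbs1 is also abundant in platelets, and the 4 platelet markers summed to 2.72 CPM in HDCA+CLP and 4.90 CPM in CLP members. Mt1, the metal-binding metallothionein 1, had 84.4 against 149 CPM (-0.82), and AY036118, for which no role is given here, had 171 against 301 CPM (-0.81). The acute phase and metal binding list that holds Mt1 went both ways, with 7 of 12 measured genes higher (median 0.11). Cpq (carboxypeptidase Q) had 49.6 against 79.2 CPM in the members of HDCA+CLP and CLP and 24.5 against 20.9 CPM in their granule-low cells, where the sign was the opposite. Dock10, Rasa2 and Srsf3 (a splicing factor) had log2 ratios of -0.62 to -0.52. Igtp, Ifi47 and Irgm1, 3 interferon-inducible GTPases that act against intracellular microbes, made up the rest, with log2 ratios of -0.73, -0.67 and -0.66. All 10 higher and all 10 lower genes had the same direction in each of the 4 bins of granule share.

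**Figure D3:**
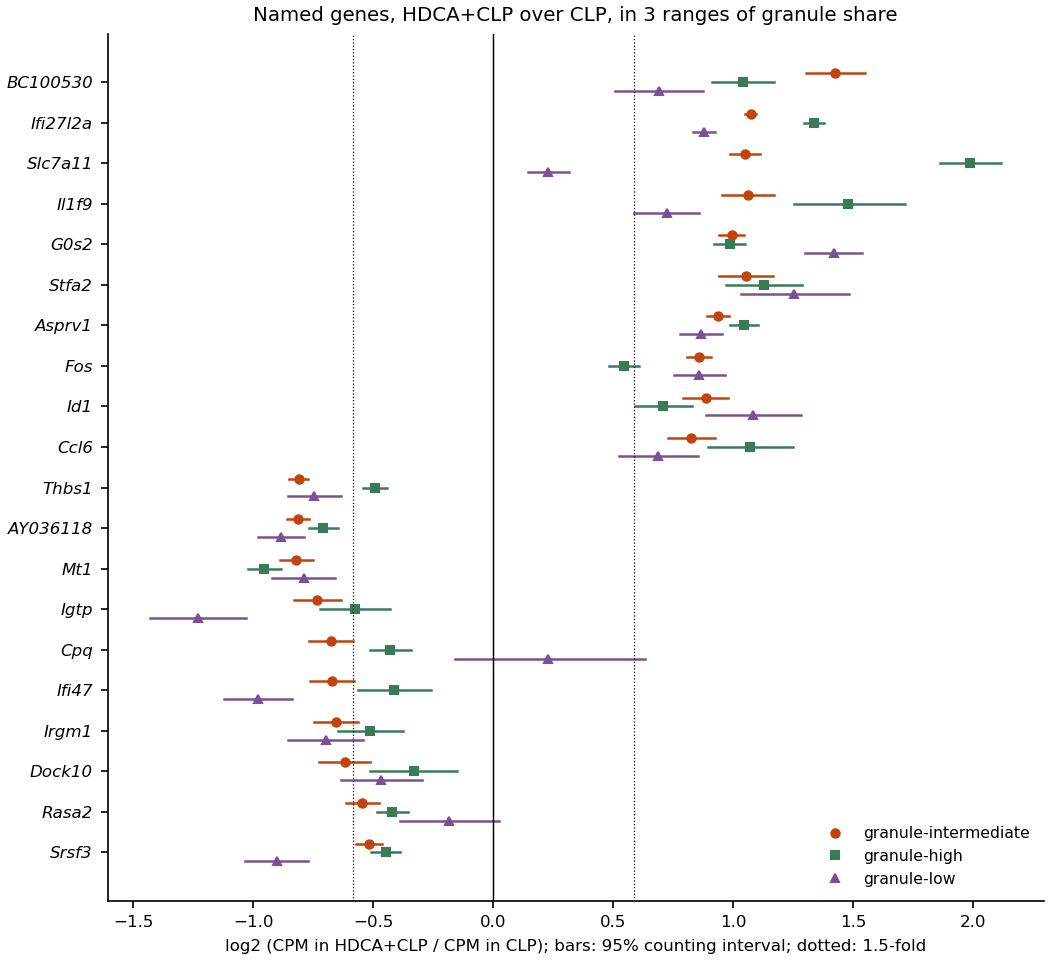
The log2 ratio of CPM, HDCA+CLP over CLP (x axis), for the 20 named genes (y axis), with 1 point each for granule-intermediate, granule-high and granule-low cells, 95% counting intervals as bars and dotted lines at 1.5-fold. The 10 higher genes lie right of 0 in all 3 ranges, and of the 10 lower genes only Cpq in granule-low cells (0.23) crosses to the right.

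The promoters of 4 interferon-gamma response genes are shown since this list stood furthest below CLP among those with more than 5 measured genes. Its median was -0.66. Of the shorter lists, NK cell markers (5 measured, median -0.74) and platelet markers (1 measured, -0.79) stood lower. They are the 100 bases before the start, 5′ to 3′ on the gene's strand, from RefSeq on GRCm38.p6: Igtp at chr11:58199456-58199555 (plus), Irgm1 at chr11:48871421-48871520 (minus), Gbp2 at chr3:142620563-142620662 (plus) and Gbp7 at chr3:142530236-142530335 (plus). Capitals mark matches on either strand to GAAA followed by any 2 bases and GAAA, the core of the element that transcription factors of the interferon response bind.
Igtp: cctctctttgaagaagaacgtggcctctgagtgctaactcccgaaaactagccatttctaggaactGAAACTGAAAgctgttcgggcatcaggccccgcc
Irgm1: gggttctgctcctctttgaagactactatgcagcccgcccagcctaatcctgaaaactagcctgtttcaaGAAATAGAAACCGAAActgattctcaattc
Gbp2: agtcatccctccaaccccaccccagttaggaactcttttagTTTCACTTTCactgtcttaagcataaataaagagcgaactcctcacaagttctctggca
Gbp7: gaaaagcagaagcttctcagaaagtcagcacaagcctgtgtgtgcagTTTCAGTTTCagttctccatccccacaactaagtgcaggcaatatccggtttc
Igtp held 1 match 34 bases before the start, and Irgm1 held 2 that overlap, at 30 and 24 bases. Gbp2 held 1 at 59 and Gbp7 held 1 at 53 bases, both on the other strand. Within 250 bases upstream, 2.98% of 32851 promoters and 3.46% of 27025 genes held the motif, 10 of the 13 interferon-gamma list genes with an entry did, and so did 10 of 27 of the type I list. The letters alone say nothing of what was bound in these cells.

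Of the 20 genes of the interferon-gamma response list, 17 were measured and 16 of these were lower in HDCA+CLP members, 9 of them by at least 1.5-fold, with a median log2 ratio of -0.66 beside -0.09 for all genes. Igtp had 40.6 CPM in HDCA+CLP members, 67.5 CPM in CLP members and 0 in Sham members (log2 ratio -0.73, -0.83 to -0.63). Irgm1 had 50.4, 79.4 and 0 CPM in the same order of libraries (-0.66, -0.75 to -0.57). In the 8 Sham cells, 0 UMIs in 78538 have an exact upper limit of 47.0 CPM. Irgm1 in both CLP libraries and Igtp in CLP lay above that limit, and Igtp in HDCA+CLP did not.

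The guanylate-binding proteins, GTPases that attack vacuoles holding microbes, split by size of the difference. Gbp2 had 116 CPM in HDCA+CLP members and 142 CPM in CLP members (-0.29, -0.35 to -0.22), and Gbp7 89.3 and 120 CPM (-0.43, -0.50 to -0.36). Gbp6 had 1.64 against 4.71 CPM (-1.52), Gbp5 6.28 against 11.7 CPM (-0.90) and Gbp4 5.16 against 9.06 CPM (-0.81), all at low levels. Gbp9 was the one measured gene that was higher, at 12.9 against 10.8 CPM (0.25, 0.03 to 0.46). The paralogs of this family are alike in sequence and their counts are less certain. Irf1, the transcription factor that relays the interferon-gamma signal, had 129 CPM in HDCA+CLP members and 163 CPM in CLP members (-0.33), Socs1, its feedback inhibitor, 39.0 and 52.5 CPM (-0.43), and Cd274, encoding the checkpoint ligand PD-L1, 14.8 and 25.3 CPM (-0.78). Cxcl9, Ciita and Ido1 had too few UMIs to be measured, with 5, 6 and 0 in HDCA+CLP members and 0, 7 and 2 in CLP members.

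**Figure D4:**
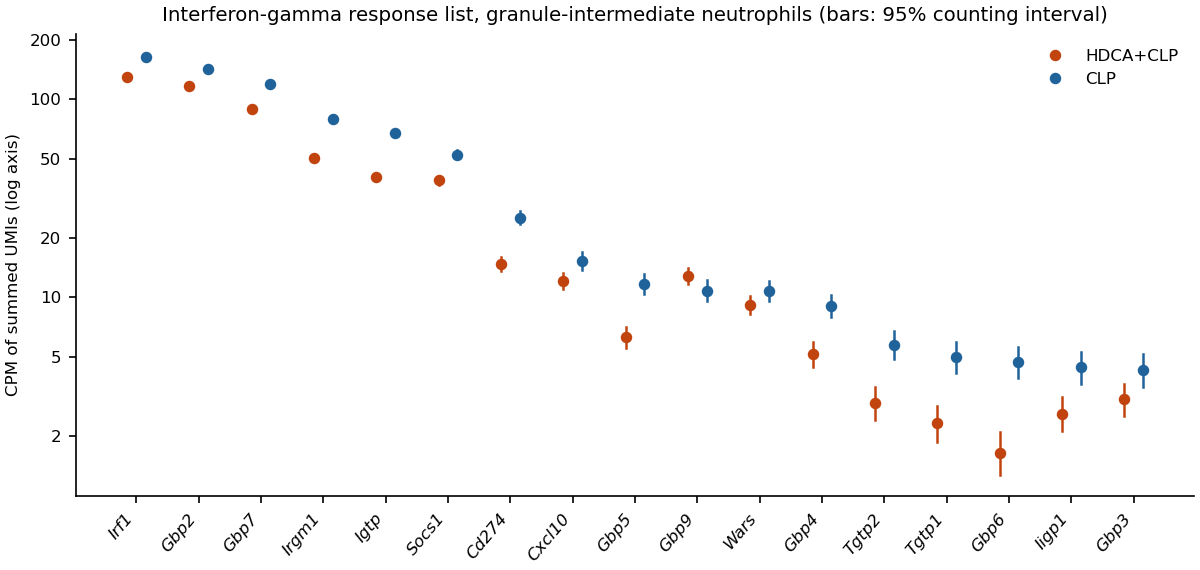
CPM of summed UMIs (log axis) of the 17 measured interferon-gamma response genes in granule-intermediate members, HDCA+CLP left of CLP for each gene, with 95% counting intervals as bars. HDCA+CLP lies below CLP for 16 genes and above it for Gbp9.

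The lower values of the interferon-gamma list were seen along the granule scale. The list's median was -0.30 in granule-high cells, with 13 of 17 genes lower, and -0.90 in granule-low cells, with 16 of 17 lower, and 13 of the 17 genes were lower in all 4 bins of the intermediate range. T cell and NK cell markers moved the same way in the members, with 5 of 5 lower in each list (medians -0.42 and -0.74). In granule-low cells 5 of 5 were also lower in each list, with medians of -1.51 and -1.33. Cells with another class's markers made up 7.54% of granule-low HDCA+CLP cells and 14.5% of granule-low CLP cells. Called doublets were 5.65 and 12.0% of them, and the part of either in the granule-low value was not tested. In the gated T, B, NK and monocyte cells Igtp reached at most 210 CPM in HDCA+CLP and 204 CPM in CLP. Without members bearing another class's markers the list's median was -0.56, and without called doublets it was -0.58. Genes of MHC class I presentation, which interferon-gamma also induces, were lower for 14 of 15 (median -0.22, none past 1.5-fold), as with Tap1, a peptide transporter, at 144 CPM in HDCA+CLP and 190 CPM in CLP members. The exception H2-D1 had 2243 and 2218 CPM.

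Genes of the type I interferon response went mostly the other way, with 24 of 34 measured above CLP in HDCA+CLP members (median 0.17), 5 of them past 1.5-fold higher and 2, Ifi47 and the sparsely counted Mx1, past 1.5-fold lower. Irf7, the master regulator of type I interferon genes, had 276 CPM in HDCA+CLP members, 170 CPM in CLP members and 25.5 CPM in Sham members, a log2 ratio of 0.70 (0.65 to 0.75) between the first 2. Isg15, a ubiquitin-like modifier, had 383 CPM in HDCA+CLP members and 268 CPM in CLP members, Isg20, an RNA exonuclease, 136 and 85.7 CPM, and Bst2, which tethers virus particles, 92.7 and 59.5 CPM. Ifitm3, which blocks virus entry, had 4646 and 3658 CPM. Stat2, which relays the type I interferon signal, went the other way, with 44.4 CPM in HDCA+CLP members and 63.0 CPM in CLP members. In granule-high cells 26 of 33 genes were higher (median 0.34) and in granule-low cells 22 of 33 (median 0.10).

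Cytokines and chemokines were mostly higher in HDCA+CLP members. Of 22 measured, 14 were higher (median 0.23), 5 of them past 1.5-fold. Cxcl2 had 2821 CPM in HDCA+CLP members and 1688 CPM in CLP members (0.74, 0.72 to 0.76), and Il1b 205 and 121 CPM (0.76, 0.70 to 0.82). Both were higher in all 4 bins, with log2 ratios of 0.57 to 1.00 for Cxcl2 and 0.58 to 1.01 for Il1b. Il10, the anti-inflammatory cytokine, was at 3.57 CPM in HDCA+CLP members and 11.6 CPM in CLP members, a log2 ratio of -1.71 (-2.01 to -1.41), and at 14.4 and 92.0 CPM in the granule-low cells of the 2 libraries. Those granule-low cells differed in their share of cells with another class's markers, as given above. The list's median was 0.50 in granule-high cells and close to 0 in granule-low cells, where 10 of 21 genes were higher, and in the members it was 0.13 without called doublets and 0.28 without cells bearing other markers.

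Granule proteins and receptors differed little. Of 16 measured specific granule genes outside the rule, 12 were higher in HDCA+CLP members (median 0.10), none past 1.5-fold, with Pglyrp1, a peptidoglycan recognition protein, at 3337 CPM in HDCA+CLP and 2368 CPM in CLP members and Chil3 at 5861 and 7038 CPM. The gelatinase list had a median of -0.01 and the receptors of mature neutrophils 0.09, where 14 of 21 genes were higher and none past 1.5-fold. Ly6g had 277 CPM in HDCA+CLP members and 177 CPM in CLP members (0.65, 0.60 to 0.70), higher in all 4 bins. Nuclear genes of oxidative phosphorylation were lower for 30 of 34 (median -0.16), none past 1.5-fold, against 34 of 34 lower in granule-low cells (median -0.49). Relative to the median of all genes, -0.09, the oxidative phosphorylation difference was small. HDCA is a bile acid, and of the 10 genes in the bile acid receptor list 4 were measured: Nr1h2, the liver X receptor beta, had 57.6 CPM in HDCA+CLP and 58.9 CPM in CLP members, Rxrb had 19.7 and 18.4 CPM, and S1pr2 and Rxra stayed under 3 CPM. Nr1h4 and Gpbar1, which encode the receptors FXR and TGR5, had 0 UMIs in the members of every library.

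**Figure D5:**
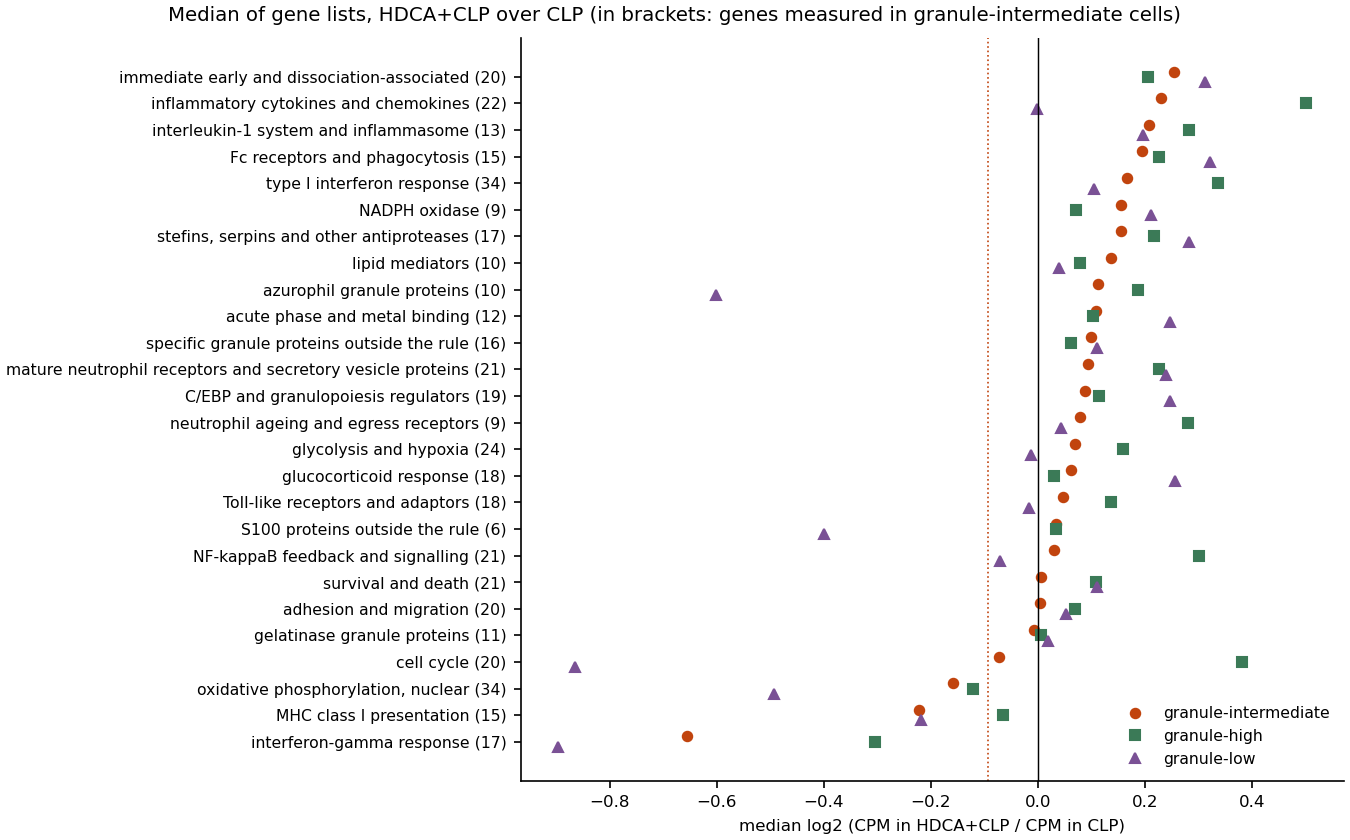
Median log2 ratio of CPM, HDCA+CLP over CLP (x axis), for the gene lists (y axis, with the number of measured genes), in granule-intermediate, granule-high and granule-low cells. The interferon-gamma list lies left of 0 in all 3 (-0.66, -0.30 and -0.90), and the type I interferon list lies right of it in all 3 (0.17, 0.34 and 0.10).

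The comparison of CLP with Sham rests on 8 Sham cells with 6147 to 14687 UMIs each, 78538 in all, from an unknown number of animals, so it is given by cell where possible. One of the 8 was a called doublet with T and NK cell markers. By the rule set for the comparison, 656 of 8301 genes (7.90%) were at least 2-fold higher and 4016 (48.4%) at least 2-fold lower in CLP members. The lower count was set mostly by the floor: 3196 of the genes had 0 Sham UMIs and were placed at a floor of 3 counts, 38.2 CPM, and 3097 of these lay under that level in CLP members too, so that they have no fold. They made up 2791 of the 4016 lower genes. Of the 5105 genes with at least 1 Sham UMI, 631 were higher and 1225 lower (median -0.24), and 3082 of them had 1 to 3 Sham UMIs. Size factors, which centre the median of all 8301 genes, gave 2023 higher and 2533 lower. Among the 461 genes with enough signal to give 20 Sham UMIs at the higher of the 2 levels, a set chosen after seeing the data, 52 (11.3%) were higher and 44 (9.54%) lower, with a median of -0.14. A gene can enter that set through the higher group alone.

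Orm1, encoding the acute phase protein orosomucoid 1, had 903 CPM in CLP members and 0 in all 8 Sham members, a log2 ratio of at least 4.56 against the floor. The middle quartiles of the CLP cells spanned 146 to 1080 CPM. Chil3 had 7038 CPM in CLP members and 802 CPM in Sham members, where single cells ranged up to 1441 CPM, while the lower quartile of CLP cells was 4242 CPM, a log2 ratio of 3.13 (2.78 to 3.51). Cxcl2 had 1688 CPM in CLP members and 25.5 CPM in Sham members, from 2 UMIs, a log2 ratio of 6.05 (4.20 to 9.10), although Sham granule-low neutrophils had 1666 CPM. Cd14, the lipopolysaccharide co-receptor, had 578 CPM in CLP members and 12.7 CPM in Sham members, from 1 UMI (5.50, 3.03 to 10.8).

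Il1r2, the decoy receptor for interleukin-1, had 1343 CPM in CLP members and 178 CPM in Sham members (2.91, 2.17 to 3.78). Nfkbia, the NF-kappaB inhibitor, had 1063 and 178 CPM, and every Sham cell lay under the lower quartile of the CLP cells, 538 CPM. Fth1, the ferritin heavy chain, had 9117 CPM in CLP members and 2177 CPM in Sham members (2.07, 1.85 to 2.29). Of the type I interferon genes, 3 had enough signal in both groups, and Ifitm3 (log2 ratio 1.33), Ifitm6 (0.87) and Ifitm1 (0.32) were higher in CLP members. The 4 others that entered the set, such as Ifi27l2a at 705 CPM in CLP and 63.7 CPM in Sham members, did so through their CLP level, which fixes their direction. Over all 33 measured genes of the list 28 were higher (median 1.33), with 11 at 0 Sham UMIs, beside 25.8% of all 8301 genes. Ly6e and Ifit1, also interferon-induced, were the other named genes, with 515 and 154 CPM in CLP members and 2 and 0 UMIs in Sham members. Sham granule-low neutrophils had more than Sham members of Fth1 (5458 CPM), Il1r2 (543), Nfkbia (529) and Cd14 (277). The same held for Ifitm1 (6113 CPM), Ly6e (471) and Ifi27l2a (445). Chil3 (575 CPM), Ifitm3 (1351) and Ifitm6 (1060) were lower there than in Sham members, and Orm1 (1.69) and Ifit1 (13.5) stayed low. These ratios are set against Sham members alone, and a comparison with all Sham neutrophils was not made.

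Retnlg, Mmp8 and Mmp9 were lower in CLP than in Sham members on the CPM scale. Retnlg had 16276 CPM in CLP members and 41305 CPM in Sham members, a log2 ratio of -1.34 (-1.39 to -1.29), and the 8 Sham cells ranged over 17090, 37855 and 65053 CPM (lowest, median, highest), all above the CLP median of 15144.5 CPM. Of the neutrophil markers outside the rule 6 of 6 were lower (median -0.89), with Cxcr2 close to equal at 670 CPM in CLP and 713 CPM in Sham members. So were the 4 genes of the gelatinase granule list with enough signal in both groups, such as Mmp9 with 1587 CPM in CLP and 2712 CPM in Sham members, and 10 of the 11 measured (median -0.63). None of these genes was at 0 in Sham. Retnlg, Mmp8 and Mmp9 are in both lists, so the 2 lists are not separate observations. Of all 8301 measured genes 25.8% were above 0 in CLP against Sham, a share that the floor lowers. Centred on the 461 genes above, a scaling chosen after seeing the data, the medians were -0.75 for the 6 markers and -0.49 for the 11 gelatinase genes. Centred on all 8301 genes, whose median of -0.93 the floor lowers, they were 0.05 and 0.30. Clec12a had 28.3 CPM in CLP members and 267 CPM in Sham members (-3.24, -3.86 to -2.54), with at least 68.1 CPM in each of the 8 cells. Lyz2, the lysozyme gene, had 292 CPM in CLP members and 3654 CPM in Sham members, where single cells ranged from 1838 to 7563 CPM, and it was chosen after its values were seen. Stfa1 had 53.5 CPM in CLP members and 840 CPM in Sham members, but all 66 Sham UMIs came from 1 cell at 6914 CPM. The other genes named as lower (Cd8b1, Ifit1bl2, Nudt7, Sept5, Lxn, Fbxw4, Acvrl1 and Dck) had 4 to 14 Sham UMIs each, too few to describe further. The Sham members lay at the lower end of the granule range, which is given here as a measured difference. Matched over the 2 filled bins, 769 genes were higher and 3804 lower.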

How the data were processed

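Cells came from 3 droplet libraries, 1 a group. Raw UMI counts per gene (31053 genes) and cell barcode were deposited by the authors, per the file headers from Cell Ranger, and the submitters' processing notes name Cell Ranger 5.0.1, Seurat 4.0.6, R 4.0.3 and build mm39. Totals were 95178381 UMIs over 12205 barcodes in HDCA+CLP, 87031721 over 11387 in CLP and 42427093 over 7159 in Sham. The members and gene lists were chosen with earlier results of these data known.

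From these counts, the UMIs of all cells in 1 granule range of a library were added up and scaled to 1000000 (CPM, computed here). Ratios carry exact conditional binomial intervals, levels exact Poisson intervals and shares exact Clopper-Pearson intervals, all 95% and for counting error only. PCR copies are removed by the UMIs, but cells of a library share animals and preparation. Genes with at least 50 UMIs over both sums were measured, and a sum of 0 was set at a floor of 3 counts. Called meant at least 2-fold, or 1.5-fold between HDCA+CLP and CLP.

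Named genes were the 10 in each direction (8 against granule-low or granule-high cells) with the ratio bound furthest from 1 among those with at least 50 CPM in the higher sum. Genes of the rule, mitochondrial, ribosomal protein, haemoglobin, immunoglobulin and predicted genes were left out, as were genes under 20% of their level in gated T, B, NK or monocyte cells of the library, since free RNA can supply these. Genes given as list examples, markers or bin profiles were picked from fixed lists with their values known.

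Doublets were scored against 2 simulated doublets per cell (2000 variable genes, 30 principal components, 40 neighbours) and called at 0.8% per 1000 barcodes. They were kept in the main values. The scripts were tested on simulated counts. Alternatives were size factors, a total without the rule's 5 genes, means over cells, other UMI minimums, a 5% mitochondrial limit, removal of called doublets or of cells with 3 UMIs of another class's markers, thinning to 2000 UMIs, a granule share of 1.5% to 4%, and matching over bins. A minimum of 20 expected UMIs, a size factor from those genes and matching on the 2 bins filled in Sham were chosen after seeing the data. The tools were Python 3.11.15, scikit-learn 1.9.0, SciPy 1.17.1, NumPy 2.4.6, matplotlib 3.10.9 and pandas 2.3.3. Values of 1 gene are not reported here.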

Additional observations from a re-analysis of the deposited data

How the results depend on the processing

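No paired analysis was possible because each group has 1 library. Shares of all cells kept their order in every alternative run. Without called doublets they were 35.5% in HDCA+CLP and 24.7% in CLP, or 46.8% and 53.9% of cells past the S100 threshold, and with a 5% mitochondrial limit the CLP share was 30.7%. For HDCA+CLP against CLP, the count of higher genes was 378 with a minimum of 20 UMIs and 134 with 100. The count of lower genes was 1083 and 403 with these minimums, 366 without called doublets, 356 without cells bearing another class's markers and 358 in thinned cells. The interferon-gamma list kept its direction in all 12 alternatives, with medians of -0.69 to -0.56. Against granule-low cells, higher genes numbered 142 as a mean over cells, 156 with size factors and 220 without the rule's genes, and lower genes 362 without the rule's genes and 226 thinned. Against granule-high cells, higher genes numbered 157 without called doublets, 186 without marker-bearing cells, 717 with a minimum of 20 UMIs and 144 thinned, and lower genes 48 both with size factors and without the rule's genes. For CLP against Sham, higher genes numbered 2023 with size factors, 151 thinned, 397 at a granule share of 1.5% to 4% and 52 with 20 expected UMIs, and lower genes 2533 with size factors and 44 with 20 expected UMIs. Between libraries, the list medians of at least 0.25 and named genes of at least 2-fold or 1.5-fold that changed sign were the following. In CLP against Sham they were the 9-gene neutrophil marker list, which holds 3 genes of the rule (0.30 with size factors), the gelatinase list (0.30 with size factors), the type I interferon list (-0.37 thinned) and Ifit1 (-0.23 thinned). In HDCA+CLP against CLP it was the erythroid list (-0.31 without called doublets). The size factors centre a median that the floor lowers, and centred on the 461 genes with 20 expected UMIs the neutrophil and gelatinase medians were both -0.49. Retnlg, Mmp8 and Mmp9 are in both of these lists. The thinned signs come from the floor, since 16000 thinned Sham UMIs put 3 counts at 187.5 CPM. Mmp8, under 2-fold in CLP against Sham, ran from -0.94 to 0.30. Against the neighbouring ranges the median of 5 of 33 lists changed sign in each library for granule-high cells, the cell cycle list among them, and of 4 of 34 for granule-low cells, with nuclear oxidative phosphorylation among them in CLP. A lower minimum measures more genes, a higher one fewer, and thinning leaves fewer counts, and the cause of the other changes was not tested. The 8 Sham cells limit every value set against them.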
